A study of Homo sapiens with 8 samples.

Results

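The genes described here are 9 of the complement system and its regulators, C1R, C1S, CFB, C3, C5, C8G, CFI, CD59 and VTN, taken as the rows with these symbols from a count table of 86369 gene identifiers. The list was drawn up by gene name, with earlier results of these data known. Of the 9 genes, 7 passed the filter on low counts and were tested, and the other 2 (C1R and CFB) were listed at 0 in every library. HepG2 is an established human liver cancer line, labelled as hepatocellular carcinoma, and it was grown in DMEM with fetal bovine serum and antibiotics. Lipofection delivered either an siRNA against NAT10 (siNAT10, 4 libraries) or a negative control siRNA (siCtrl, 4 libraries), and total RNA was taken 2 days later, so both groups went through transfection. NAT10 is an RNA acetyltransferase that makes N4-acetylcytidine. By the labels, batch 1 holds replicates 1 and 2 of each siRNA, and batch 2 holds replicates 3 and 4. They do not say whether replicates came from separate cultures, so the p-values measure only the spread between these libraries, which may be technical. All libraries come from 1 cell line.

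The complement system is a chain of plasma proteases and binding proteins that mark and lyse microbes and damaged cells, and hepatocytes are a main source of most of them. C1r and C1s start the classical pathway, factor B forms the alternative pathway convertase, both pathways meet at C3, and cleavage of C5 starts assembly of the membrane attack complex, to which C8 belongs. Factor I inactivates C3b and C4b, CD59 blocks the last assembly step at the cell surface, and vitronectin, an adhesive glycoprotein of plasma that also binds integrins and the urokinase receptor, keeps the forming complex from inserting into membranes.

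The libraries held between 9731718 and 27977110 counts, and the 9 genes took between 0.154% and 0.212% of a library. The kit reads the 3' end of polyadenylated RNA, so a count does not grow with transcript length. Levels are in CPM, which sets each count against its library's total, with the totals scaled by TMM, a factor that aligns the bulk of genes between libraries. Folds are log2 values of siNAT10 relative to siCtrl with batch as a term, from edgeR's quasi-likelihood test, and calls are at an adjusted p under 0.05, by Benjamini-Hochberg over all 13840 tested genes. NAT10 itself was at 44.7, 39.2, 77.8 and 48.9 CPM in siCtrl 1 to 4 and at 13.1, 12.2, 20.1 and 22.3 CPM in siNAT10 1 to 4. It fell by 1.66 on the log2 scale (SE 0.14, adjusted p = 2.0e-05), with no overlap between the groups. The hepatocyte marker list was present, with 11 of 12 genes tested, while the macrophage markers summed to at most 3.94 CPM and the endothelial markers to at most 1.55 CPM in any library. Markers of cholangiocytes were present as well, at 869 to 1064 CPM in sum, with 3 of 5 tested (KRT19, SOX9 and EPCAM). Stellate or fibroblast markers summed to at most 41.5 CPM, with ACTA2 at a mean of 32.4 CPM. APOB, a defining hepatocyte gene, had between 0 and 7 counts per library.

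The 2 genes at 0, C1R and CFB, lie among other genes at 0, so no level was read for either. CFB (chromosome 6, 31945650 to 31952086, + strand, GRCh38) sits in a run of 34 consecutive protein-coding genes, from LSM2 to HLA-DRB5, that had no count in any of the 8 libraries. The run includes the complement genes C2, C4A and C4B and also NELFE, a subunit of the elongation factor NELF. In the stretch of chromosome 6 around the HLA genes, 151 of 175 protein-coding genes (86.3%) were at 0, against 5175 of 19439 (26.6%) genome-wide. C1R (chromosome 12, 7080214 to 7092540, - strand) is the first of 5 consecutive genes at 0, followed by C1RL, RBP5, CLSTN3 and PEX5, the last encoding the import receptor of peroxisomes. C1S, the gene next to C1R, had 4628 counts over the 8 libraries. What removed these counts was not tested, and the zeros are not read as a lack of expression.

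**Figure D1:**
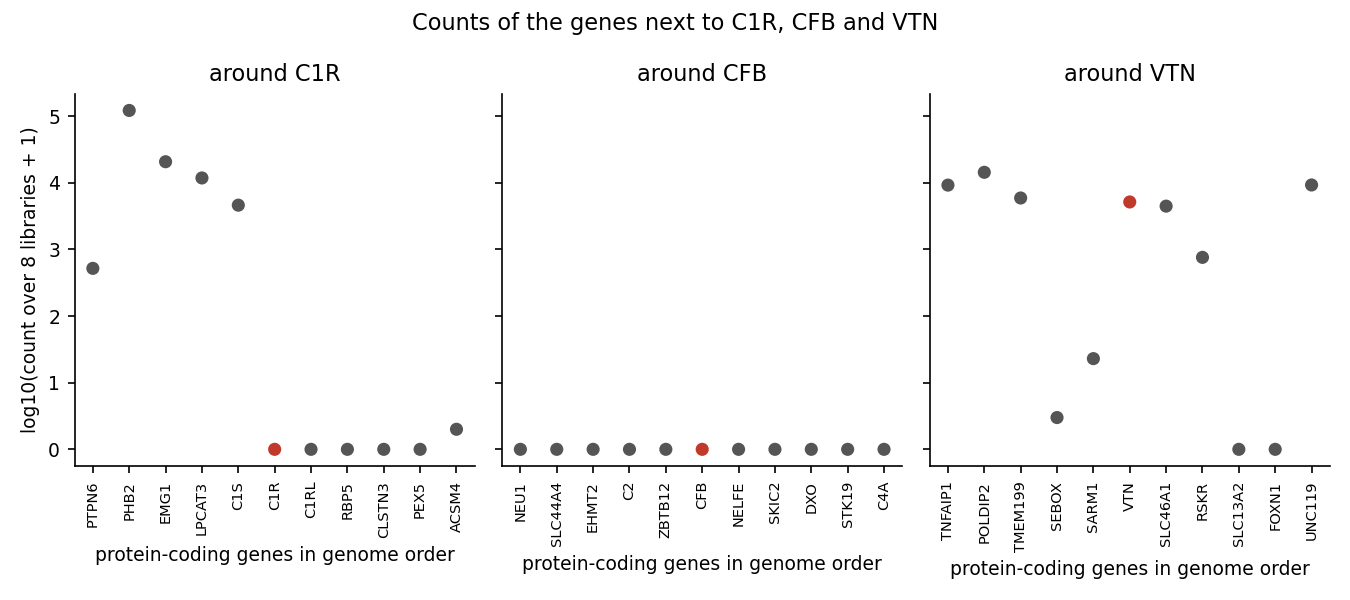
Total counts over the 8 libraries, as log10(count + 1), of C1R, CFB and VTN (red) and of the 5 protein-coding genes on each side of them (grey), in genome order. C1R opens a block of genes at 0 right beside C1S, every gene shown around CFB is at 0, and 8 of the 10 genes around VTN have counts, SLC13A2 and FOXN1 being at 0.

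VTN and C5 fell in siNAT10, and the other 5 tested genes were not called. Over all tested genes, 315 (2.28%) were called in either direction and 202 (1.46%) were called lower, against 2 of the 7 genes here, both lower. The median log2 fold of the 7 was -0.18, while that of 11 tested hepatocyte markers was lower, at -0.28. For all tested genes it was -0.0024, and their 5th to 95th percentiles ran from -0.50 to 0.47. Fitted folds were below 0 for 6 of the 7, against 6968 of all 13840 tested genes. Among the 6 was CFI, at -0.0077, whose sign changed under other scalings. In 3 of the 7 (VTN, C5 and CD59), both siNAT10 libraries lay below both siCtrl libraries in each batch, which held for 1093 of all tested genes (7.9%). The summed level of the hepatocyte markers ran from 12032 to 13198 CPM in siCtrl and from 9658 to 10606 CPM in siNAT10, without overlap. Of the 11 tested, 8 had fitted folds below 0 and 3 had folds above 0. TF and APOA2 fell and 9 were not called, among them ALB, the largest part of the sum, at a log2 fold of -0.37. The 3 above 0, also not called, were FGB at 0.37, HNF4A at 0.09 and KRT8 at 0.04. The calls for TF and APOA2 were lost in 5 and 7 of the 8 fits that leave out a library. The part of this in the results for VTN and C5 was not tested. In bulk RNA, fewer cells that make a transcript and less transcript per cell cannot be told apart.

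**Figure D2:**
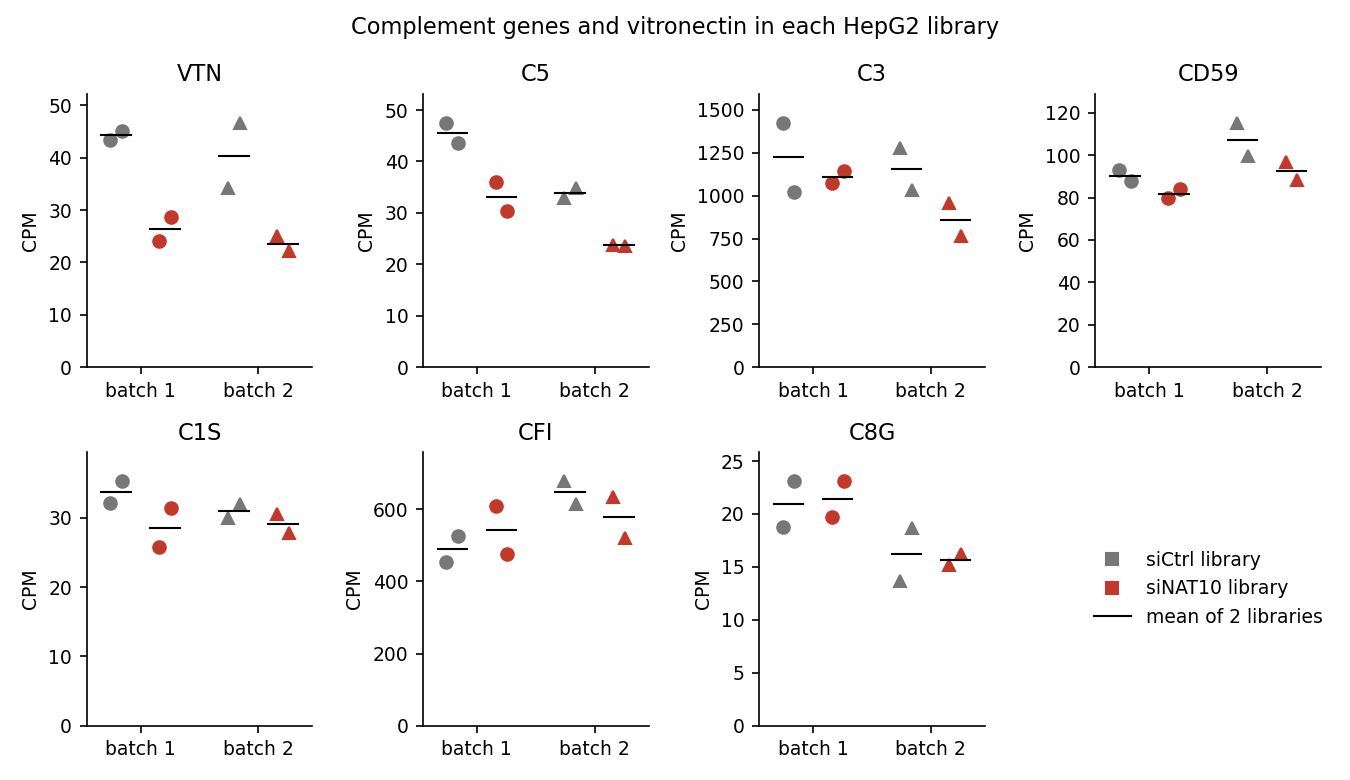
CPM on TMM-scaled library sizes in each library for the 7 tested genes (circles, batch 1, triangles, batch 2, grey, siCtrl, red, siNAT10, black bars, means of 2 libraries). VTN is the panel in which all 4 siNAT10 points, at 22.2 to 28.7 CPM, lie below all 4 siCtrl points, at 34.2 to 46.7 CPM.

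VTN (ENSG00000109072) spans 28367284 to 28373091 on the - strand of chromosome 17 and has 8 exons in its reference (MANE Select) transcript. It was at 43.5, 45.1, 34.2 and 46.7 CPM in siCtrl 1 to 4 and at 24.2, 28.7, 25.0 and 22.2 CPM in siNAT10 1 to 4. Every siNAT10 library was below every siCtrl library. The mean went from 42.4 ± 5.62 to 25.0 ± 2.74 CPM (SD, n = 4 each), and the fitted level in siNAT10 was 59.3% of siCtrl. VTN thus fell by 0.75 on the log2 scale (SE 0.12, 95% confidence interval -1.004 to -0.50), with an adjusted p of 0.0036 in edgeR. Its fold stood at percentile 1.61 of all tested genes. In batch 1 alone the fold was -0.74 (adjusted p = 0.010) and in batch 2 alone -0.77 (adjusted p = 0.40), so the size was alike while the call was lost with the 4 libraries of batch 2. VTN was called whichever 1 of the 8 libraries was left out (adjusted p from 0.00094 to 0.021), and its adjusted p was 0.0998 in a fit without the batch term.

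The 3' end of VTN overlaps introns of SARM1 and of ENSG00000258924 on the other strand and an exon of ENSG00000273171 on its own strand. These had 1 to 7, 0 and 0 counts per library, against 227 to 1196 counts for VTN. On the same strand, an exon of ENSG00000244255 overlaps the 3' end of CFB, and it too had 0 counts in every library. Introns of ENSG00000285330 and ENSG00000284969 overlap the ends of CFI and CD59, with 0 and with 0 to 4 counts per library.

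C5 (ENSG00000106804), the precursor of the anaphylatoxin C5a and of the first building block of the membrane attack complex, spans 120932987 to 121075195 on the - strand of chromosome 9 and has 41 exons. In batch 1 it was at 47.5 and 43.7 CPM in siCtrl and at 36.0 and 30.3 CPM in siNAT10. In batch 2 it was at 33.0 and 34.8 CPM in siCtrl and at 23.8 and 23.6 CPM in siNAT10. The groups were apart within each batch, but siNAT10 1 was above both siCtrl libraries of batch 2. The mean went from 39.7 ± 6.98 to 28.4 ± 5.92 CPM (SD, n = 4 each), a level of 71.3% by the fit. C5 fell by 0.49 on the log2 scale (SE 0.10, 95% confidence interval -0.71 to -0.27, adjusted p = 0.021), at percentile 5.35 of all tested genes. The fold was -0.46 in batch 1 alone (adjusted p = 0.13) and -0.51 in batch 2 alone (adjusted p = 0.60). The call for C5 was lost in 5 of the 8 fits that leave out a library, with adjusted p of 0.092 without siCtrl 1, 0.052 without siCtrl 2, 0.053 without siCtrl 4, 0.106 without siNAT10 2 and 0.062 without siNAT10 3, and without the batch term it was 0.48.

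C1S and C3, which act before C5, were not called. C1S (ENSG00000182326, chromosome 12, 6988259 to 7071032, + strand), the protease that cleaves C4 and C2, was at 32.1, 35.3, 30.0 and 32.0 CPM in siCtrl 1 to 4 and at 25.7, 31.4, 30.5 and 27.8 CPM in siNAT10 1 to 4. The groups overlapped only in batch 2, and the log2 fold was -0.16 (95% confidence interval -0.39 to 0.07, adjusted p = 0.51). C3 (ENSG00000125730, chromosome 19, 6677704 to 6730562, - strand) had the highest level of the 7 on this 3'-end scale, at 1425, 1024, 1279 and 1035 CPM in siCtrl 1 to 4 and at 1076, 1144, 959 and 763 CPM in siNAT10 1 to 4. The siNAT10 libraries of C3 lay between the siCtrl libraries in batch 1 and below both in batch 2. Its log2 fold was -0.28 (SE 0.13, unadjusted p = 0.044, adjusted p = 0.30), with -0.14 in batch 1 alone and -0.42 in batch 2 alone.

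The remaining 3 genes are a late component, C8G, and the regulators CD59 and CFI. C8G (ENSG00000176919, chromosome 9, 136945185 to 136946975, + strand), the lipocalin-like gamma chain of C8, was at 18.8, 23.1, 13.6 and 18.7 CPM in siCtrl 1 to 4 and at 19.7, 23.1, 15.1 and 16.2 CPM in siNAT10 1 to 4. The 2 means were both 18.5 CPM (SD 3.86 and 3.60, n = 4 each), and the 95% confidence interval of the log2 fold ran from -0.27 to 0.28. CD59 (ENSG00000085063, chromosome 11, 33703010 to 33736479, - strand), the surface inhibitor of the membrane attack complex, was at 92.9, 87.7, 115.3 and 99.4 CPM in siCtrl 1 to 4 and at 79.6, 84.1, 96.8 and 88.3 CPM in siNAT10 1 to 4. Within each batch its siNAT10 libraries were the lower ones, with a log2 fold of -0.18 (SE 0.10, 95% confidence interval -0.38 to 0.03, adjusted p = 0.40). CFI (ENSG00000205403, chromosome 4, 109731008 to 109802150, - strand), the protease factor I, was at 455, 526, 678 and 616 CPM in siCtrl 1 to 4 and at 609, 476, 635 and 521 CPM in siNAT10 1 to 4. Its groups overlapped in both batches, and its log2 fold was -0.01 (95% confidence interval -0.26 to 0.24, adjusted p = 0.99), with a sign that changed under other scalings.

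C5 and C8G also differed between the batches, with siRNA held as a term. C5 was lower in batch 2 by a log2 difference of -0.45 (adjusted p = 0.0043), close in size to its siRNA fold. C8G was lower in batch 2 by -0.41 (adjusted p = 0.030), a call lost without siCtrl 2 (0.102), siNAT10 2 (0.108), siCtrl 3 (0.094) or siNAT10 3 (0.087). VTN differed between batches by -0.15 (adjusted p = 0.38). These 2 of 7 genes compare with 3500 of all tested genes (25.3%) that differed between batches. Whether the siRNA fold itself differed between batches was tested with an interaction term, and edgeR called 0 of 13840 genes (0%), with 421 at an unadjusted p under 0.05 and 1 called by DESeq2. For VTN the interaction was -0.03 on the log2 scale (SE 0.25), and the adjusted p was 0.9996 for all 7 genes. The SE ran from 0.20 for CD59 to 0.27 for C8G, with 2 libraries per siRNA and batch, so a moderate difference between batches could have been missed.

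**Figure D3:**
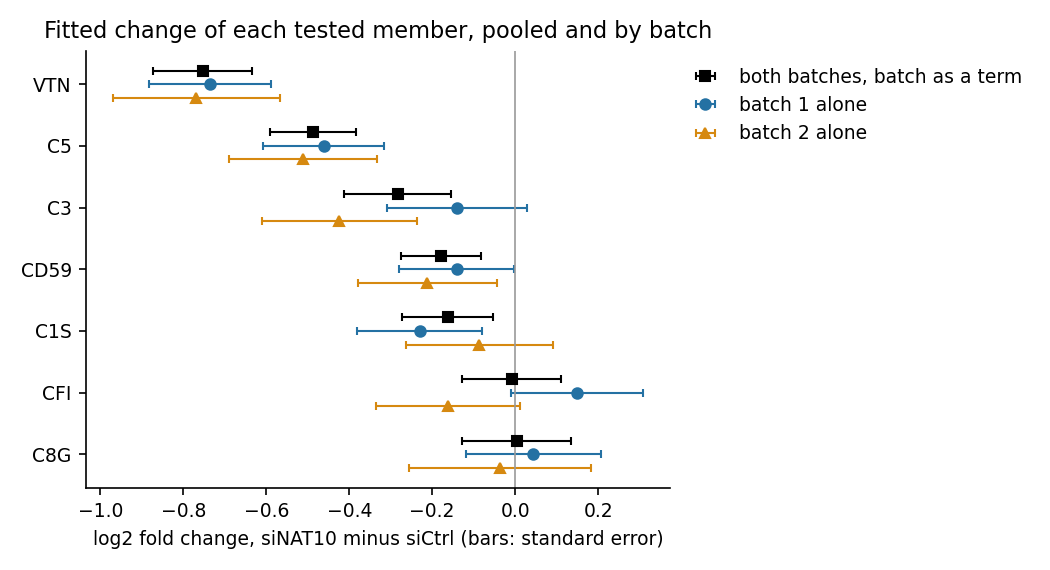
Fitted log2 folds of siNAT10 relative to siCtrl for the 7 tested genes (squares, both batches with batch as a term, circles, batch 1 alone, triangles, batch 2 alone, bars, 1 standard error). VTN (-0.75) and C5 (-0.49) lie lowest, with values in each batch close to the joint one, while CFI and C8G have opposite signs in the 2 batches.

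Promoter sequence is shown for the 2 genes that fell, so that liver factor motifs can be seen in place. RefSeq tables on GRCh38.p14 had promoters for 6 of the 9 genes (C5, C1R, CFB, CFI, CD59 and VTN), 11 in all. The 250 bases before each start were searched on both strands for HNF1 (TTAATNATT), HNF4 (CAAAGNNCA), C/EBP (TTGCNNAA), STAT (TTCNNNGAA) and NF-kB (GGGANTTCC) letters. Matches are in capitals, each sequence reads 5′ to 3′ on the gene's - strand, and C5 is chr9:121050276-121050525 and VTN is chr17:28370308-28370557. C5 has 2 promoters in the table, and the other one, chr9:121074866-121075115, held none of the searched letters. The C5 promoter printed is the one with a match. It lies inside the annotated gene, whose 5′ end is at 121075195, and the promoter without a match is the one near that end. The VTN stretch also lies inside the annotated span of its gene, whose 5′ end is at 28373091.
C5: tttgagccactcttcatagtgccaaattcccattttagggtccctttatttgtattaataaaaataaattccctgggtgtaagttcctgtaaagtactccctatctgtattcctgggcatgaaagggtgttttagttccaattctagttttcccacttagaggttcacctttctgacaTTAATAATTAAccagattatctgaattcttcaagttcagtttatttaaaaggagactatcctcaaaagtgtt
VTN: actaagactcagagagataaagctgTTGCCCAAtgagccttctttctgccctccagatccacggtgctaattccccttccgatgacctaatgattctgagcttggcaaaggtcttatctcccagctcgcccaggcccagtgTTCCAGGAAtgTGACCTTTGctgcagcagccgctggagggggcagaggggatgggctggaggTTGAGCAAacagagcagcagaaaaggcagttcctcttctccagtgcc
The capitals in C5 are 2 overlapping HNF1 matches, and those in VTN are, in order, C/EBP, STAT, HNF4 and C/EBP. Of all 35116 promoters, 1.17% held the HNF1 letters, 4.44% the HNF4 letters, 9.05% the C/EBP letters, 6.57% the STAT letters and 1.59% the NF-kB letters. Of the 11 promoters of the 6 genes, 1 held HNF1, 1 HNF4, 4 C/EBP, 5 STAT and 0 NF-kB letters, and some promoters of 1 gene overlap and share a match. By gene, HNF1 letters were found in C5, HNF4 letters in VTN, C/EBP letters in C1R, CD59 and VTN, and STAT letters in C1R, CD59, CFB and VTN. These are letter matches only, and binding was not measured.

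No other complement gene was called by edgeR. Of 49 listed, 23 were at 0 in every library and 12 were tested. Over all tested genes, 2.28% were called, so 0 of 12 is near that share. In edgeR, 2 of the 12 (CPN1 and C4BPA) had an unadjusted p under 0.05, against 2173 of all 13840 tested genes. DESeq2 called 0 of the other complement genes as well. The median log2 fold of the 12 was -0.04, with 9 of 12 below 0. The median was 0.004 when scaled by library size alone, 0.016 in batch 1 alone, -0.12 in batch 2 alone, -0.18 over 26 genes without the low-count filter, and from -0.09 to -0.0095 with a library left out. Among the soluble regulators, C4BPA, the alpha chain of the C4b-binding protein that serves factor I as a cofactor, went from a mean of 43.6 ± 5.18 to one of 52.2 ± 6.19 CPM (SD, n = 4 each), which edgeR did not call (log2 fold 0.27, adjusted p = 0.24). Its partner chain C4BPB had a fold of -0.0033, with a sign that changed under other scalings. Clusterin (CLU), another fluid-phase inhibitor of membrane attack, had a fold of -0.05 and turned positive in batch 1 alone. Of the membrane regulators beside CD59, CD46 had a log2 fold of -0.08 and CD55 of 0.19, neither called. ITGB2, the beta chain of the complement receptors CR3 and CR4, had means of 345 ± 102 and 287 ± 85.2 CPM in siCtrl and siNAT10 (SD, n = 4 each, adjusted p = 0.58). The alpha chains of these receptors were near the floor, ITGAM at 0 to 6 counts per library (not tested) and ITGAX at a mean of 1.16 CPM. The other terminal genes C6, C7, C8A, C8B and C9 were not tested and summed to at most 0.939 CPM in a library.

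The proteins that vitronectin binds were also looked at. Of 11 receptor and ligand genes 6 were tested, and their median log2 fold was -0.23. Of the 6, 0 were called by edgeR (1 at an unadjusted p under 0.05, and 1 called by DESeq2). That is near the 2.28% called over all tested genes. The integrin chains of the vitronectin receptor had folds of -0.02 for ITGAV and -0.24 for ITGB5 (adjusted p = 0.97 and 0.34). PLAUR, the urokinase receptor, had a fold of -0.30 (adjusted p = 0.36).

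**Figure D4:**
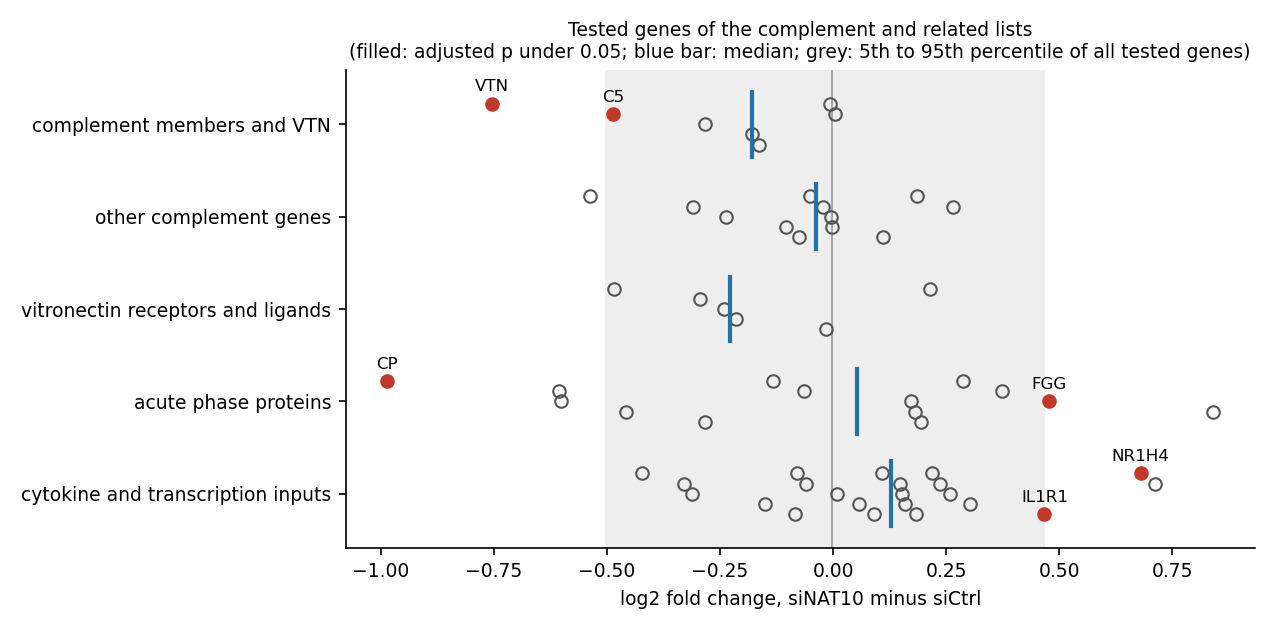
Log2 folds of siNAT10 relative to siCtrl, one point per tested gene, in 5 lists (filled red, adjusted p under 0.05, blue bars, list medians, grey band, 5th to 95th percentile of all tested genes). VTN and C5 are the filled points among the complement genes, and the 12 other complement genes, from -0.54 (CPN1) to 0.27 (C4BPA), are all open.

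The genes whose pattern over the 8 libraries was most like that of VTN were GOLPH3L, MFSD9 and GPX3, out of 8458 genes with a symbol and at least 8 CPM. Likeness was the root mean square, over the 8 libraries, of the difference between log2 levels taken relative to the siCtrl mean of the batch, and it was 0.127, 0.133 and 0.137. Since the choice was made on this pattern, lower levels in siNAT10 follow from it, and the values are a description with no test. GOLPH3L, a relative of the Golgi phosphoprotein GOLPH3, went from 16.2 ± 3.36 to 9.21 ± 1.38 CPM (SD, n = 4 each). MFSD9, of the major facilitator family of membrane transporters, went from 26.8 ± 2.52 to 14.6 ± 1.51 CPM. GPX3, the secreted glutathione peroxidase, went from 46.2 ± 5.64 to 30.7 ± 4.70 CPM.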

How the data were processed

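The authors deposited whole-number counts per Ensembl gene for 8 libraries, 1 column each (0 columns unused). Per the labels, reads were aligned with STAR 2.7.9a to GRCh38 and counted with featureCounts, and the submitters' processing notes also name Trim Galore 0.6.10 and cutadapt 3.5. The annotation release, strand setting and treatment of reads in several genes or places are not given in the sources used here, and the kit is called forward in one text and reverse in another. Symbols and coordinates came from GENCODE 44 (61458 of 86369 identifiers matched, and unmatched ones took 1.27% to 1.65% of counts).

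From the counts, edgeR 4.0.16 in R 4.3.3 kept genes by filterByExpr (minimum count 10), scaled by TMM and tested batch and siRNA as additive terms. Standard errors came from the F statistic. The genes and lists were chosen with earlier results of these data known. Named genes were NAT10, the 9 genes, called genes of the side lists, other complement genes of at least 8 CPM, genes over the last 300 bases of a member, and the 3 profiles most like VTN. Alternatives were no batch term, a replicate block, DESeq2 1.42.0, RLE size factors, library size alone, no or another low-count filter, each batch alone, and each library left out. The tests were checked on simulated counts. Of 50 genes set to each fold, 40 were recovered at 0.5, 20 at 0.7, 32 at 1.43 and 46 at 2. With a mean of at least 100 counts, 19 of 35 were recovered at 0.7. A gene that was not called may thus have changed by a small fold. One gene of the vitronectin partner list is not reported here. Libraries with the same replicate number deviated together from their group means (correlations across genes 0.39, 0.38, 0.45 and 0.36), as did others of 1 batch (0.14 to 0.50), so a block on the number was run as well. Taken from the means of each group within its batch, same-number correlations were -0.062 in batch 1 and 0.167 in batch 2. The labels name no molecular identifiers, so counts are reads.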

Additional observations from a re-analysis of the deposited data

How the results depend on the processing

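VTN was called in 15 of 17 alternatives and C5 in 9 of 17, with folds of unchanged sign in all 17. Of the 9 genes, 0 were called without the batch term, 1 in batch 1 alone, 0 in batch 2 alone and 1 to 2 with a library left out, VTN each time. Over all genes, 315 calls became 15 without the batch term, 567 with DESeq2, 595 without the low-count filter, 173 in batch 1 alone, 0 in batch 2 alone (946 at an unadjusted p under 0.05) and 75 to 286 with a library left out (75 without siNAT10 2, 104 without siCtrl 1, 132 without siCtrl 2, 134 without siNAT10 1 and 178 without siNAT10 3). With the replicate block there were 454 calls, and it changed no call among the 9 genes. With library size alone, 138 genes were higher and 149 lower, against 113 and 202. Interaction calls were 0 to 2 with a library left out, 1 with DESeq2 and 15 without the filter. NAT10 had a fold of -1.58 in batch 2 alone (adjusted p = 0.086). Reversed signs were all of uncalled folds near 0. CFI gave 0.0011 with DESeq2, 0.00037 with RLE factors, 0.030 with library size alone, 0.15 in batch 1 alone and -0.11 to 0.082 with a library left out. C8G gave -0.0016 without the filter, -0.036 in batch 2 alone and -0.067 to 0.099 with a library left out. C4BPB gave 0.0066 with the replicate block, 0.0063 with DESeq2, 0.0053 with RLE factors, 0.037 with library size alone, 0.10 in batch 1 alone and -0.10 to 0.11 with a library left out. MASP2 gave 0.018 with library size alone, 0.20 in batch 2 alone and -0.11 to 0.049 with a library left out. CLU gave 0.11 in batch 1 alone and -0.16 to 0.076 with a library left out, and CPN2 gave -0.022 to 0.21 with a library left out. Dropping libraries or a batch leaves fewer samples, and the cause of the other changes was not tested. C8G, VTN and C5 had their lowest counts, 166, 227 and 241, in siNAT10 4, the shallowest library, and an effect of depth on them was not tested. Intervals cover the spread between these libraries only.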

Other observations

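Other liver genes linked to complement in the acute phase did not share 1 direction. Of 21 acute phase genes 14 were tested, and their median log2 fold was 0.05. The sign of that median was not stable: it was 0.17 in batch 1 alone, -0.20 in batch 2 alone, -0.11 without the low-count filter, and from -0.088 (without siCtrl 2) to 0.099 (without siCtrl 4) with a library left out. CP, which encodes ceruloplasmin, went from 62.4 ± 6.89 to 31.6 ± 5.10 CPM (SD, n = 4 each) and fell by 0.99 on the log2 scale (adjusted p = 5.7e-04 in edgeR), a call kept whichever library was left out and lost in batch 2 alone (adjusted p = 0.22). FGG, the fibrinogen gamma chain, went from 177 ± 11.7 to 246 ± 21.8 CPM (SD, n = 4 each) and rose by 0.48 (adjusted p = 0.020), but the call was lost in 6 of the 8 fits that leave out a library (adjusted p up to 0.081, called only without siCtrl 3 or siNAT10 4).

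Among 22 tested genes of cytokine signalling and liver transcription factors, edgeR called NR1H4 and IL1R1 higher, 0 lower and 20 not at all. Over all tested genes, 2.28% were called. DESeq2, the replicate block and the fit without the low-count filter each called 3 of the 22 higher and 1 lower. Each batch alone and the fit without the batch term called 0. With a library left out, 0 to 2 were higher, and 1 was lower without siNAT10 4. NR1H4, the bile acid receptor FXR, went from 13.0 ± 2.96 to 20.7 ± 4.23 CPM (SD, n = 4 each, log2 fold 0.68, adjusted p = 0.011), a call lost without siNAT10 2 (adjusted p = 0.057). The NR1H4 call was also lost in batch 1 alone (adjusted p = 0.054), in batch 2 alone (0.48) and without the batch term (0.34). IL1R1, the interleukin 1 receptor, had a log2 fold of 0.47 (adjusted p = 0.037), which stayed under 0.05 only without siCtrl 3 (0.049) or siNAT10 4 (0.032) and was 0.062 to 0.127 in the other 6 fits with a library left out. The hepatocyte markers TF and APOA2 had log2 folds of -0.49 and -0.48 (adjusted p = 0.023 and 0.040). For both, every siNAT10 library was below every siCtrl library. With a library left out, the fold ran from -0.55 to -0.44 for TF and from -0.55 to -0.39 for APOA2, but most of these fits lost the call. TF stayed called without siCtrl 2, siCtrl 4 or siNAT10 4 and reached an adjusted p of 0.091 without siNAT10 3, and APOA2 stayed called only without siCtrl 4 and reached 0.154 without siCtrl 1.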
